A study of Drosophila melanogaster with 42 samples.

Results

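The org-1 locus on chromosome X was covered by 20 of the 491 candidate regions assayed, and the present results concern these 20 tiles. They are the regions whose identifier starts with CG11202, the locus tag that the RefSeq gene table pairs with org-1, and they are named below by the rest of the identifier. The gene org-1 (optomotor-blind-related-gene-1) encodes a T-box transcription factor of the Tbx1 family. In the Drosophila embryo it is known as an identity factor of a subset of somatic muscle founder cells, which are the cells that seed each body wall muscle and give it its size, position and attachment. It is also known from the founder cells of the circular visceral muscles and from the alary muscles, which hold the heart in place.

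The assay sorted cells of whole Drosophila embryos on a reporter and counted the inserted regions in their genomic DNA. Males of a transgenic pool, in which a candidate region stands before a GFP reporter, were crossed to females that express the rat surface protein CD2 in chosen cells. All groups share 1 embryo age: a collection of 2 to 2.5 h at 25 °C, then 9 to 10 h of ageing at 18 °C. The drivers of CD2 are called twi, mef2 and duf in the labels, after twist, a gene of the early mesoderm, Mef2, a gene of muscle differentiation, and dumbfounded, a gene of muscle founder cells.

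The 42 libraries fall into 12 groups. With driver twi, GFP+ cells and inputs were collected from both the CD2+ and the CD2- population, 3 libraries of each kind, from 63849 to 111875 GFP+ cells and 100000 or 200000 input cells. Driver mef2 had 1 library of 16163 CD2+ GFP+ cells, which the labels call pooled, with 5 small CD2- inputs of 20048 to 32326 cells beside it. It also had 3 libraries of 94473 to 138635 CD2- GFP+ cells and 3 CD2- inputs of 200000 cells. Driver duf had 1 pooled library of 20015 CD2+ GFP+ cells with 5 small inputs of 39668 cells, whose titles give CD2 without a sign and which the series' design text gives as CD2-. It also had 6 libraries of 36206 to 55331 CD2- GFP+ cells and 6 CD2- inputs of 200000 cells. Inputs were not selected on GFP, and an input of the same CD2 sign was lacking for both pooled CD2+ libraries. No RNA was measured, so the sorted populations could not be checked against marker genes.

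Libraries held 15601850 to 30671351 reads, so that 3 reads, taken as the limit that a count of 0 allows, correspond to 0.0978 to 0.192 CPM (counts per 1e+06 reads in all regions of the library). The labels do not say whether replicates are separate crosses, so p-values measure library-to-library spread only, part or all of which may be technical. Limits from a count of 0 cover counting error only, because PCR reads without molecular identifiers are not independent molecules. Reads came from amplified genomic DNA, so more cells carrying a tile and more amplification per cell cannot be told apart.

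The tiles span 14975 bp of the dm3 assembly, from X 8336098 to 8351072, and 13034 of these bases lie in at least 1 tile. Each tile is 936 to 1100 bp long with a GC content of 31.4% to 47.7%. The 11 down tiles occupy the low coordinates, from 8336098 to 8342416, and are numbered upward along the chromosome. The 5 body tiles, with identifiers c, b, a_1, a_2 and a_3, follow from 8343146 to 8348189, and the 4 up tiles close the series from 8348266 to 8351072. Up tiles were the most GC-rich, with a median of 45.5% against 37.2% in the body and 36.8% in the down tiles. In the gene table, whose coordinates are of another assembly and were not used, the nearest genes on either side of org-1 are CG12123 and CG32713. Exons, introns and UTRs of dm3 were not analysed here.

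All 20 tiles overlap another org-1 tile and none overlaps a region of another name. The 16 overlaps measure 6 to 679 bp, and 3 gaps of 729, 1136 and 76 bp separate down_11 from c, b from a_1 and a_3 from up_1. Most tiles therefore share nearly all of their bases with neighbours: down_9 (X 8340516 to 8341477) shares all of them and down_8 (X 8339836 to 8340877) 99.9%, while c and b share only 0.595% and 0.596%. Tile down_5 (X 8338314 to 8339413) shares 471 bp with down_4 and 595 bp with down_6, which leaves 34 bp of its own. The deposited totals hold fractions of reads in such regions, so neighbouring tiles are not independent measurements. Fractional totals were found for 8 to 14 of the tiles per duf library but for only 0 to 3 per twi or mef2 library. Whether this bears on which tiles were seen with each driver was not tested.

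The tiles detected differed by driver. With 100 reads in at least 1 library as the criterion, 7 tiles were seen in the 24 twi and mef2 libraries, namely down_1 (X 8336098 to 8337186), down_7 (X 8339417 to 8340514), down_9, down_11 (X 8341481 to 8342416), a_1 (X 8346292 to 8347240), up_1 (X 8348266 to 8349319) and up_4 (X 8349977 to 8351072). The other 13 had at most 4 reads in any of these libraries. In the 18 duf libraries the same 7 tiles were seen together with 8 more. These were down_2 (X 8336689 to 8337694), down_3 (X 8337218 to 8338277), down_4 (X 8337741 to 8338784), down_5, down_8, a_2 (X 8346777 to 8347782), a_3 (X 8347253 to 8348189) and up_3 (X 8349358 to 8350356).

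The share of tiles seen in duf libraries only, 8 of 20 or 40.0%, was close to the 43.4% of all 491 regions. The slou tiles, which cover the gene of another muscle identity factor, gave 6 of 11, and the tiles of nej, the gene of a histone acetyltransferase, gave 9 of 17. The driver cannot be told apart from the sequencing batch or the pool of flies. Tiles that met the criterion in no library were down_6 (X 8338819 to 8339806), down_10 (X 8340878 to 8341910), c (X 8343146 to 8344154), b (X 8344149 to 8345155) and up_2 (X 8348765 to 8349832). These 5 had at most 13 reads in any of the 42 libraries, and down_10 had none. Edge reads, which are counted at the start and end of a tile, were 0 for down_10 and up_2 in all 42 libraries. They were also 0 for c and b in 41 libraries and for down_6 in 38. A separate deposited value, headed as center positions covered, reached 2373 for down_10, of whose bases 99.7% lie in down_9 or down_11. The meaning of this value and the division of reads among overlapping tiles are not given in the sources. A total near 0 was therefore not taken as absence of the insert. These 5 tiles give no measure of reporter activity.

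Only down_4 and down_11 reached 100 reads in all 18 duf libraries, and no tile did so in all 24 twi and mef2 libraries. Among the duf CD2- inputs of 200000 cells, 12 to 14 tiles per library reached 100 reads, against 8 to 11 in the small inputs, 6 to 11 in CD2- GFP+ cells and 7 in the CD2+ GFP+ library. Of all 491 regions, 368 to 409 reached 100 reads in the duf CD2- inputs of 200000 cells and 313 to 337 in the small inputs. The numbers were 273 to 346 in CD2- GFP+ cells and 322 in the CD2+ GFP+ library. In twi and mef2 inputs of 100000 or 200000 cells 3 to 7 tiles reached 100 reads, as did 156 to 188 of all regions. Cell number fell along with GFP selection in most comparisons, and its part in the number of tiles seen was not tested.

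Start and end reads of a tile, which the tables list apart from its total, showed a further difference between drivers. In 301 combinations of tile and library with at least 100 reads, 14 had under 1% of their edge reads at one edge, and all 14 were duf libraries. Tile down_7 gave 9 of these, which are all 9 duf libraries in which it reached 100 reads. At most 0.119% of its edge reads lay at its start there, against 51.3% to 72.3% in 20 twi and mef2 libraries. Its end lies 1 bp before the start of down_9 in the same overlapping set. Tile a_1 gave 4 of the other combinations and down_9 gave 1. In duf libraries the edge reads of down_7 thus lay at its higher-coordinate edge, and whether its full insert was present there was not tested.

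In the inputs, the levels of the tiles spanned a wide range. In the duf CD2- inputs down_11 was the most abundant at 4067 ± 1460 CPM (mean ± SD, n = 6), followed by a_2 at 2338 ± 1053, down_4 at 1650 ± 1004, down_2 at 970.5 ± 414 and down_9 at 932 ± 449. Body tiles a_1 and a_3 had 776 ± 616 and 467 ± 207 CPM. Further down came down_8 at 422 ± 383, down_1 at 279 ± 320, up_4 at 221 ± 220 and up_1 at 190.3 ± 294 CPM, and then up_3 at 145 ± 142 and down_7 at 90.0 ± 91.5. The lowest tiles seen were down_3 at 83.9 ± 124 and down_5 at 60.0 ± 46.6 CPM. Apart from the step from down_11 to a_2, neighbours in this order differed by less than the larger SD of the pair.

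The order was another one in twi and mef2 inputs. In twi CD2+ inputs down_1 led with 6646 ± 3211 CPM (n = 3), ahead of down_9 at 4327 ± 3708, down_11 at 4111 ± 2253 and down_7 at 1776 ± 1801. In twi CD2- inputs down_11 had 4935 ± 1969, down_1 4831 ± 2259, down_9 4201 ± 4036 and down_7 2026 ± 1765 CPM. In mef2 CD2- inputs down_1 led with 4503 ± 1291 CPM, followed by down_11 at 1261 ± 827. Down tiles therefore held most org-1 reads with every driver: 1.69% of all reads in the library on average in twi CD2+ input, against 0.0130% for body and 0.0646% for up tiles. In duf CD2- input the shares were 0.855% for down, 0.358% for body and 0.0555% for up tiles.

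All tiles together took a smaller share of the reads in GFP+ cells than in the matched input in 4 of the 6 populations, with no overlap between libraries. The share was 0.279% ± 0.0308 (SD, n = 3) in twi CD2+ GFP+ cells against 1.76% ± 0.668 in their input, and 0.657% ± 0.235 against 1.69% ± 0.518 in twi CD2- cells. In mef2 CD2- cells it was 0.248% ± 0.169 against 0.737% ± 0.0111, and in duf CD2- cells 0.429% ± 0.166 against 1.27% ± 0.261 (n = 6 each). The pooled mef2 CD2+ GFP+ library had 0.0290%, below its small inputs at 0.0776% to 1.78%, whereas the pooled duf CD2+ GFP+ library had 1.06%, inside the range of its small inputs of 0.791% to 2.18%. GFP+ libraries were filled by few regions of the whole set: the 10 most abundant took 57.9% of duf CD2- GFP+ reads against 15.4% in the input, and 69.1% against 31.2% in twi CD2+ cells. Scaled by total reads, the median region of the duf CD2- comparison had a log2 change of -2.13. The tests below use TMM scaling, which aims to centre the bulk of the regions and puts that median at -0.07. In the other comparisons with input the median region lay further from 0 on the TMM scale. It was -0.29 in twi CD2-, -0.40 in mef2 CD2-, -0.51 in twi CD2+, -0.72 in duf CD2+ and -2.29 in mef2 CD2+ cells.

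In duf CD2- cells 1 tile, down_5, was called higher in GFP+ cells. It had 57474, 23263, 1904, 53, 21279 and 19716 reads in GFP+ replicates 1 to 6, which are 2510.1, 959, 83.7, 1.73, 1116 and 782 CPM. The 6 inputs had 1019, 393, 1716, 59, 2168 and 2771 reads, or 39.5, 15.4, 96.0, 2.14, 98.4 and 109 CPM. Replicates 1, 2, 5 and 6 of the GFP+ cells lay above every input, replicate 3 lay within the input range and replicate 4 lay below every input, so the groups overlapped.

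Mean levels of down_5 were 909 ± 909 CPM in GFP+ cells and 60.0 ± 46.6 CPM in input (SD, n = 6 each), a 15.2-fold difference. On the TMM scale its log2 change was 5.98 ± 1.44 (SE), with an adjusted p of 0.0084 in edgeR's quasi-likelihood test, and it ranked at place 7 of 400 regions by log2 change and at place 38 by p. It was the only org-1 tile called higher among 14 tested, and no tile was called lower. Over all 400 regions tested, 11.8% were called higher and 1.25% lower, so that 1 call in 14 tiles is a share near the background.

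The call of down_5 held when each library was left out in turn, with log2 changes of 5.32 to 6.24 and adjusted p of 0.0016 to 0.0282. With replicate numbers as a block it also held, at a weaker adjusted p given in the last section. It did not hold with scaling by total reads (log2 3.92, adjusted p = 0.0553) or with the sequencing lane as a block (log2 4.65, adjusted p = 0.637). Only 2 lanes held both CD2- GFP+ libraries and inputs of 200000 cells. In lane 8 GFP+ replicate 1 had 2510.1 CPM against a mean of 103 CPM in input replicates 5 and 6, which is 24.3-fold higher. In lane 1 GFP+ replicate 4 had 1.73 CPM against 39.5 CPM in input replicate 1, which is 22.8-fold lower. Both lane contrasts cross replicate numbers, and input replicate 4 had 2.14 CPM. Lanes 2, 5 and 7 held CD2- GFP+ libraries together with small inputs, which this test left out. Against the small input of its lane, down_5 was higher in CPM in GFP+ replicates 2, 5 and 6 and lower in replicate 3. Within same-numbered pairs GFP+ cells were higher in 4 of 6, by 63.6-fold, 62.1-fold, 11.3-fold and 7.20-fold in replicates 1, 2, 5 and 6, with ratios of 0.872 in replicate 3 and 0.809 in replicate 4.

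Because down_5 lies almost wholly inside its neighbours, its own edges and the pooled neighbours were also tested. With start and end reads in place of totals its log2 change was 5.54 (adjusted p = 0.0111, edgeR). Edge reads of down_5 lay at both ends, with 40.9% to 56.9% at its start over the 13 duf libraries with at least 100 reads. Neighbour down_6 had at most 13 reads in any library, and with the reads of down_4 and down_5 summed into 1 region the log2 change was 2.37 (adjusted p = 0.0120). The sum was tested on the TMM scale only. Total reads shifted the median region by -2.06, close in size to this change, so the result for the sum rests on the scaling.

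Neighbour down_4 had 38038, 21950, 13753, 31285, 8098 and 48438 reads in duf CD2- GFP+ replicates 1 to 6 and 82194, 64343, 28135, 27743, 13540 and 25467 in the inputs. These are means of 1089 ± 589 and 1650 ± 1004 CPM, and the groups overlapped. Its log2 change was 1.58 ± 0.65 (SE) on the TMM scale, with an unadjusted p of 0.0269 and an adjusted p of 0.168, and the sign turned with total reads (log2 -0.60). DESeq2 called down_4 and down_5 higher (adjusted p = 0.0263 and 8.1e-08), which is 2 of 14 tiles against 14.8% of 391 regions called higher.

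Tile down_11 had 749, 492.6, 853, 574, 3893 and 629.9 CPM in duf CD2- GFP+ replicates 1 to 6 and 2786, 4007, 6372, 2460.4, 3710.4 and 5065 CPM in the inputs. GFP+ replicate 5 reached into the input range and the other GFP+ libraries lay below it. The log2 change was 0.24 ± 0.59 on the TMM scale (adjusted p = 0.947) and -0.51 without GFP+ replicate 5, and with total reads it was -1.76 (adjusted p = 0.0475).

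Body tile a_2 had 400.5, 101, 0.879, 285, 87.1 and 787 CPM in the GFP+ replicates and 3234, 1479, 1604, 2345, 1415 and 3954 CPM in the inputs. Every GFP+ library lay below every input. On the TMM scale the log2 change was -0.91 ± 1.04 (adjusted p = 0.878), and with total reads it was -3.08 (adjusted p = 0.0408). With total reads 2 of 14 tiles, a_2 and down_11, were called lower, against 23.8% of all 400 regions. The same separation was found for a_3, so 2 of 14 tiles lay below every input and 0 above, against 22.2% and 4% of all 400 regions. Going from TMM to total reads shifted the median region by -2.06, so the sign or call of a_2, down_4 and down_11 rests on the scaling, as do the signs of a_1 (log2 0.22 and -1.84) and down_8 (0.16 and -1.88).

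By position, the 9 down tiles tested in duf CD2- cells had log2 changes of -1.26 to 5.98 with a median of -0.41, the 3 body tiles -0.91 to 0.22 and the 2 up tiles -1.64 and -0.62. The median of the 14 tiles was -0.59. The small duf inputs, which were also not selected on GFP, differed from the larger inputs in none of 14 tiles by edgeR (0 of 14 at an unadjusted p under 0.05, 0 by DESeq2), with 0% of 412 regions called. In these small inputs down_5 had 20, 1794, 27, 48 and 902 reads and down_4 47610, 1767, 26148, 42162 and 3818 reads. Their down_11 levels were 2486, 970.1, 3541, 3561 and 1545 CPM, and those of a_2 925, 1.09, 4267, 4700.3 and 3415 CPM. Levels of a tile thus spread over more than an order of magnitude among inputs of the same cell number for down_5, down_4 and a_2, and less for down_11.

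In cells marked by the driver named for a founder cell gene, duf CD2+, the single GFP+ library held 7 tiles with at least 100 reads. Tile down_4 led with 133255 reads or 6077 CPM, above each of the 5 small inputs (96.4 to 2729 CPM). Next were down_2 with 44806, down_11 with 30573 reads or 1394 CPM, down_9 with 8248, down_8 with 7800, up_3 with 7034 and down_5 with 1528 reads or 69.7 CPM. Of these, up_3 lay above every small input, as down_4 did, and the others lay within the input range.

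Body tiles were scarce in that library, which held 56 reads of a_1, 10 of a_2 and 3 of a_3. The small inputs had 21.8 to 3375 CPM of a_1 and 1.09 to 4700.3 CPM of a_2, so both lay below every input, whereas a_3 was at 1 and 6 reads in 2 of the inputs. Tiles with at least 100 reads in a small input and 0 in that library were down_1, at least 2519-fold lower than the mean input, down_7, at least 273-fold lower, and up_1, whose inputs reached 1374 CPM in replicate 3 and at most 0.146 CPM in the other 4. On leaving out an input the limit ran from 855 to 3149 for down_1 and from 173 to 341 for down_7. Small input replicate 3 itself had 0 reads of down_1 and of down_7, so neither lay outside the range of the inputs. Each limit is against 3 reads in the single library. At its start, down_7 had 0 edge reads in small inputs 1, 2 and 5, and a_1 had at most 3 in small inputs 1 and 3. Whether these reads came from full inserts was not tested, which also limits the calls of both tiles given next.

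The tools differed on these tiles. In edgeR 0 of 15 tiles were called higher and 0 lower, against 0.235% and 0% of 425 regions, and 1 tile, a_2, had an unadjusted p under 0.05 (log2 -11.98 ± 5.19, adjusted p = 0.672). For down_4 the log2 change was 2.69 ± 1.66 (adjusted p = 0.783) and for down_5 it was 1.78 ± 3.41 (adjusted p = 0.984). DESeq2 called 5 tiles lower, namely a_1, a_2, a_3, down_1 and down_7, and 0 higher, among 12 tiles to which it gave an adjusted p. Of 377 regions it called 18% lower and 2.39% higher. Both tests take the spread of the single library from its inputs. Complete separation from the inputs, 2 tiles above and 2 below, compares with 12.2% and 24.7% of all regions.

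Tested directly, the enrichment of down_5 in duf CD2+ minus that in CD2- cells was -3.77 ± 3.56 on the log2 scale (adjusted p = 0.838, edgeR), so a difference between these populations was not detectable. The 95% interval of this difference, from the SE of the fit, ran from -10.75 to 3.21. For the difference, edgeR called 0 of 16 tiles (0% of 430 regions in each direction), with 1 tile, a_2, at an unadjusted p under 0.05. DESeq2 called 6 lower, which were the 5 above and up_1, against 19.6% of 423 regions.

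In twi CD2+ cells 4 down tiles lay lower in every GFP+ library than in every input, without passing the test. Tile down_1, singled out after its values were seen, had 391, 718 and 543 CPM in GFP+ cells and 5076, 4522 and 10339 CPM in input, with no overlap. Tile down_11 had 322, 756 and 740.3 against 6676, 3207 and 2450.5 CPM, also with no overlap. Tile down_9 had 1493, 1544 and 1618 CPM against 2197, 2175 and 8608 CPM. With down_7, these 4 of the 6 tested tiles lay below every input and 0 above, against 41.5% and 6.67% of all 195 regions.

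By edgeR none of the 6 was called higher or lower, against 5.13% and 0% of all regions, and 0 had an unadjusted p under 0.05 or a call by DESeq2. The log2 change was -1.95 ± 1.29 for down_1 (adjusted p = 0.655), -1.15 ± 1.44 for down_11 (adjusted p = 0.816) and 0.14 ± 1.24 for down_9 (adjusted p = 0.958), whose sign turned with total reads (log2 -1.48). The median over the 6 tiles was -1.55, and that of all regions was -0.51. Simulated data at this sample size had 97 of 195 regions changed and 1 common spread for all regions. There edgeR called 0% of regions changed by a log2 of 3 or of 6. In the real data it called 10 of 195 regions higher, so the simulation does not give the power of this test.

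In twi CD2- cells down_1 had 1767, 2812 and 6707 CPM in GFP+ cells and 2339, 6744 and 5410.4 CPM in input, so the groups overlapped. For down_1 the difference of enrichment between CD2+ and CD2- cells was -3.02 ± 1.67 on the log2 scale (adjusted p = 0.661, edgeR), which edgeR did not call for any of 7 tiles (0% of 211 regions, 0 tiles at an unadjusted p under 0.05). DESeq2 called down_1 lower (log2 -5.29, adjusted p = 0.0431), 1 of 4 tiles with an adjusted p, against 4.02% of 174 regions.

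Body tile a_1, also singled out after its values were seen, had 0 reads in all 3 twi CD2- GFP+ libraries and 9998, 3771 and 18055 reads in the 3 inputs, which are 466.5, 183 and 838 CPM. Its CPM was at least 10092-fold lower in GFP+ cells, against 3 reads over the group, and this limit ran from 6607 to 13276 on leaving out an input. By edgeR the adjusted p was 0.0947, and by DESeq2 it was 2.09e-08, where 5.52% of 163 regions were called lower. In twi CD2+ cells a_1 had at most 1 read in the GFP+ libraries, and the inputs had 794, 6409 and 2 reads.

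For the rest, edgeR called 0 of 7 tiles in twi CD2- cells, against 2.94% higher and 0% lower of 204 regions, and a_1 was the 1 tile at an unadjusted p under 0.05. Tiles a_1 and down_11 lay below every input and 0 above, against 38.2% and 3.43% of all regions. Tile down_11 had 495, 1246 and 17.1 CPM in GFP+ cells and 6436, 5661 and 2706 CPM in input (log2 -1.79 ± 1.97, adjusted p = 0.908). The log2 changes of down_9 and of up_1 were -0.23 and 1.41, and that of up_4, which had at most 143 reads in an input, was 2.47. Between the twi CD2+ and CD2- inputs 0 of 7 tiles were called by edgeR (0 at an unadjusted p under 0.05, 0 by DESeq2), as were 0% of 204 regions.

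In mef2 CD2- cells single libraries carried most of the GFP+ reads of a tile. Tile down_1 had 1525, 0.499 and 3.25 CPM in the 3 GFP+ libraries and 4851, 5585 and 3073 CPM in input. Tile down_9 had 1093, 0.3 and 0.591 CPM against 161, 0.93 and 148 CPM, and up_4 had 0.172, 0.15 and 945 CPM against 462, 3.77 and 1118 CPM. The highest GFP+ library was thus replicate 1 for down_1 and down_9 and replicate 3 for up_4.

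Tile down_11 had 528, 329 and 1.95 CPM in these GFP+ libraries and 450.1, 1229 and 2104 CPM in input (log2 -0.51 ± 2.09, adjusted p = 0.968). By edgeR 0 of 6 tiles were called, against 5.46% higher and 2.19% lower of 183 regions. None had an unadjusted p under 0.05 or a call by DESeq2. Only down_1 lay below every input and 0 tiles lay above, against 41.5% and 8.74% of all regions.

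The pooled mef2 CD2+ GFP+ library held low levels of all 7 detected tiles, from 4.57 CPM for a_1 and 8.65 CPM for up_4 to 95.2 CPM for down_11 and 105 CPM for down_1. Its small inputs spread widely: down_11 had 70.5, 3319, 5183, 15.8 and 157 CPM and down_1 64.4, 14207, 125, 2466 and 163 CPM. Tile a_1 was above every small input, at 93 reads against 0 to 83, and down_7 was below every one, which is 1 of 7 in each direction against 13% and 12.2% of all 230 regions. By edgeR 0 of 7 tiles were called (0% of 230 regions in each direction), with 0 at an unadjusted p under 0.05 and 0 by DESeq2.

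The difference of enrichment between mef2 CD2+ and CD2- cells was not called for any of 7 tiles by edgeR (0% of 231 regions higher, 0.433% lower), nor by DESeq2, and 0 had an unadjusted p under 0.05. Small and larger mef2 inputs gave 0 calls in 7 tiles by edgeR (0% of 221 regions, 0 at an unadjusted p under 0.05), while DESeq2 called a_1 higher in the small inputs (log2 7.54, adjusted p = 0.0124), where it called 15.3% of 176 regions higher. The 3 larger inputs had at most 2 reads of a_1, and the small inputs had 42, 47, 83, 0 and 0 reads.

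Across the 6 comparisons of GFP+ cells with input, the slou tiles had 0 calls by edgeR, with 10 of 11 tested in duf CD2- cells and 0 of these at an unadjusted p under 0.05, and the nej tiles had 1, lower, among 16 tested there. By DESeq2 the slou tiles had 0 calls in duf CD2- cells and the nej tiles 1 lower. In duf CD2+ cells 2 of 10 slou, 4 of 16 nej and 5 of 15 org-1 tiles tested were called lower. Of the 377 regions with an adjusted p there, 18% were called lower. The other DESeq2 calls in these loci were 2 slou tiles lower in twi CD2+ cells and 1 nej tile lower in mef2 CD2- cells. In twi CD2- cells 1 nej tile was called higher and 1 org-1 tile lower. Whether org-1 differs from the slou and nej loci was not tested. Of 27 listed genes of muscle and mesoderm identity transcription factors, 5 have regions in the assay, with 17 regions in all, namely H15, Mef2, mid, nau and slou. Of the 14 tested in duf CD2- cells, 10 are the slou tiles already counted above. By edgeR 0 of the 14 were called, with 0 at an unadjusted p under 0.05 and 0 by DESeq2. Their median log2 change was 0.10, beside -0.59 for the org-1 tiles and -0.07 for all regions tested. In the other 5 comparisons edgeR called 0 of the regions of listed genes too, with 2 at an unadjusted p under 0.05 in twi CD2+ cells and 0 elsewhere. DESeq2 called 2 lower in twi CD2+ and 2 lower in duf CD2+ cells, all of them slou tiles.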

How the data were processed

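The 42 deposited tables, 1 per library, list each region with dm3 coordinates, and the submitters' processing notes name CASAVA 1.8. Mapper versions are not given in the sources used here. Each region's total, as deposited by the authors, behaves as an expected count, with fractions in 2 to 87 regions per library. A division of reads among overlapping regions was assumed and not tested. Per the file headers, counts of reads at the start and end of a region are listed, and their sum is a weight column, as checked in all 20655 lines. GC content is deposited as a fraction. In 11 tables, 3 regions were listed on repeated lines of the same name. These lines were merged, with totals summed and the highest edge-read counts kept.

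Totals were rounded and tested with edgeR 4.0.16 (R 4.3.3, limma 3.58.1): the quasi-likelihood test on TMM-scaled counts that passed filterByExpr, with Benjamini-Hochberg adjustment over all regions tested and a threshold of 0.05. DESeq2 1.42.0, which gave no adjusted p to at most 3 tested tiles per comparison, was an alternative, beside total-read scaling, 2 other filters, edge reads, replicate and lane blocks, other spread estimates or controls for the single libraries, and each library left out. Summing down_4 and down_5 was added after seeing the data. CPM uses total reads in all regions, which for each library were 15601850 to 30671351.

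Tiles given in every duf library were those called in a GFP+ comparison and the 3 most abundant in duf CD2- input, and others were given by ranges or where singled out. Members, lists and tests were chosen with earlier results of these data known. Of 107 regions named for a gene, 105 matched a symbol in the RefSeq table.

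In simulated duf CD2- data of 400 regions, 43% of regions changed by a log2 of 3 and 95% of those changed by 6 were recovered, with 0 false calls among 200 unchanged. In simulated twi CD2+ data of 195 regions 0% were recovered. The simulations changed 200 of 400 and 97 of 195 regions and gave all regions 1 common spread. Neither gives the power of the tests on the real data. No libraries of a group agreed within sampling noise. Same-numbered GFP+ and input libraries deviated together, by the labels' replicate numbers, and the correlation was 0.148 to 0.304 for twi CD2+, 0.216 to 0.276 for twi CD2- and 0.198 to 0.373 for duf CD2-. Between the twi inputs it was 0.458 to 0.670.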

Additional observations from a re-analysis of the deposited data

Results flagged for a closer look

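In 51 sets of 5 or 6 libraries of a group, 18 (35.3%) had a highest library far from all others, where chance flags about 1 in 20. CPM values of rare inserts are skewed, and no cause was tested.

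In duf CD2- GFP+ cells, replicate 5 stood out for 4 tiles: down_11 at 3893 CPM against 492.6 to 853 in the others, down_1 at 177 against at most 22.8, up_1 at 129 against at most 0.0873, and up_4 at 243 against at most 1.09. Replicate 4 stood out for a_1 at 947 CPM against 34.8 to 142. Replicate 3 had 639.9 CPM of down_2 against at most 195 in the others, and replicate 2 had 80.2 CPM of down_3 against at most 0.527. Replicate 1 had 66.5 CPM of down_7 against at most 21.5, and 61.5 CPM of up_3 against at most 0.619.

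In duf CD2- input, replicate 6 had 747 CPM of up_1 against at most 276. In the small duf inputs, replicate 3 had 695 CPM of down_3 against at most 4.08 and 1374 CPM of up_1 against at most 0.146. Replicate 5 had 3375 CPM of a_1 against 21.8 to 741, and replicate 1 had 125 CPM of up_3 against at most 0.192.

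In the small mef2 inputs, replicate 2 had 14207 CPM of down_1 against 64.4 to 2466. Replicate 1 had 2542 CPM of down_9 against 22.3 to 104 and 3457 CPM of up_4 against at most 125. Replicate 3 had 859 CPM of up_1 against at most 59.2.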

How the results depend on the processing

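Of 360 alternative counts of called tiles in 12 comparisons, 351 stayed within 1.5 times the main count. The main count was 0 except for tiles higher in duf CD2- cells, where it was 1, so most of the 351 are 0 against 0. For that exception 17 of 20 alternatives gave the same count, and 12 of the 17 only left out 1 library. DESeq2 called 1 tile lower in twi CD2- cells, 5 lower in duf CD2+ cells, 2 higher in duf CD2- cells, 1 lower in the twi and 6 lower in the duf difference of enrichment, and 1 higher in small mef2 inputs. Over all regions with an adjusted p it called 9 lower, 68 lower, 58 higher, 7 lower, 83 lower and 27 higher in these. Scaling by total reads gave 0 higher and 2 lower (a_2 and down_11) in duf CD2- cells, beside 22 higher and 95 lower among all 400 regions, and the lane block gave 0 higher. Scaling by total reads turned the sign of 12 of 113 log2 changes of tiles over the 12 comparisons, 0 of them called on the TMM scale. In duf CD2- cells these were down_4 (to -0.60), down_11 (to -1.76), a_1 (to -1.84) and down_8 (to -1.88). Among other GFP+ comparisons they were down_9 in twi CD2+ (0.14 to -1.48), down_1 in twi CD2- (0.99 to -0.36), up_4 in mef2 CD2- (0.58 to -0.75) and down_2 in duf CD2+ (0.09 to -0.47), and the other 4 were in differences or between inputs. In duf CD2- cells down_11 also had -0.10 with the replicate block and -0.36 with the lane block. Leaving out libraries moved down_11 from -0.51, without GFP+ replicate 5, to 0.41. Causes were not tested, beyond the shift of the median region with total reads: -2.06 for duf CD2- and -0.54 for duf CD2+, -1.61 for twi CD2+ and -1.31 for twi CD2-, -1.47 for mef2 CD2- and 0.10 for mef2 CD2+.

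With the replicate block down_5 had a log2 change of 5.09 (adjusted p = 0.0450, edgeR), and the block changed no call of a tile in any comparison. Each replicated GFP+ library correlated best with the input of its own number. This held for all 3 libraries of twi CD2+, twi CD2- and mef2 CD2- cells and all 6 of duf CD2- cells. In mef2 CD2- cells same-numbered libraries correlated at 0.045 to 0.182, against -0.147 to 0.063 for other numbers. The main tests did not pair samples by number, so their p-values leave this out of account. No paired analysis was possible for both single CD2+ GFP+ libraries because they carry no replicate number. Tiles share bases and few cells were sorted in places, which limits what the level of 1 tile can show.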
